A study of Mus musculus with 2 samples.

Results

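The nuclear genes whose names mark subunits of the mitochondrial respiratory chain were examined for Tcf3 occupancy in mouse embryonic stem cells. Members were the non-control probes named Nduf, Sdha to Sdhd, Uqcr, Cox4 to Cox8 or Atp5, alone or in a hyphen-joined pair, outside the mitochondrial chromosome. The rule took 1984 of 474380 probes and 79 of 17096 gene names. Ndufa12 lay at 2 places, on chromosomes 5 and 10, so that 80 loci were described. Of these, 40 were on each of 2 promoter arrays, with 966 member probes on array 1 and 1018 on array 2. A locus carried 5 to 47 probes, with a median of 25.

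In each hybridisation, DNA from a Tcf3 chromatin immunoprecipitation was labelled with Cy5 and set against input DNA labelled with Cy3. Both came from E14, an established line of mouse embryonic stem cells, grown without feeder cells. The labels name no genetic change and no treatment of these cells, and both DNA populations were amplified by PCR before labelling. The 2 arrays shared no probe, and there was 1 hybridisation of each and no control immunoprecipitation, so every value below describes these 2 arrays and no test was possible. The series lists several antibodies and does not tie one to an array. The titles of both arrays name Tcf3.

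Tcf3, now named Tcf7l1, is an HMG-box protein that binds DNA at Wnt target genes and, in embryonic stem cells, is best known as a repressor of pluripotency genes. The respiratory chain passes electrons from NADH (complex I) and succinate (complex II) through complex III to oxygen at complex IV, and complex V makes ATP from the proton gradient. Most subunits are encoded in the nucleus, and their promoters are known for CpG islands and for sites of the factors NRF1, GABP of the ETS family, and YY1.

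A probe value here is the log2 ratio of immunoprecipitate over input, centred on the median of its array. Only spots measured above background in both channels were used, 73.0% of member probes on array 1 and 50.1% on array 2, against 69.3% and 48.2% of all probes. A set mean averages a probe with the closest measured probe to either side of it, if within 1000 bp, and the peak of a gene is its highest set mean. A gene was called where a probe naming it passed a rebuilt form of the neighbourhood rule that the study names, at a set probability of 0.001. The ± after a peak is the SD over the 2 or 3 probes of that set, not a replicate error.

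The sequences that carry the calls are the 8 called member probes, which are shown as the array files give them, 5′ to 3′, with every CpG in capitals, and the sets they form are described further on. Positions are the arrays' own, in a genome build not given in the sources used here.
Cox4nb, chr8:119302761-119302805: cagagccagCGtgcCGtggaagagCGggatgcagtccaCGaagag
Cox4nb, chr8:119302899-119302943: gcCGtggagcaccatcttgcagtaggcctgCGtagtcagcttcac
Cox4nb, chr8:119303052-119303096: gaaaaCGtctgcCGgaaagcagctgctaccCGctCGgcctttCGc
Ndufa13, chr8:68357683-68357727: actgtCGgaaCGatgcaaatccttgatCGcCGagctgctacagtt
Ndufa13, chr8:68357797-68357841: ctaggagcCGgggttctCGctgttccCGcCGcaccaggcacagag
Ndufa13, chr8:68357958-68358002: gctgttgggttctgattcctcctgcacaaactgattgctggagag
Ndufa4, chr6:11845238-11845282: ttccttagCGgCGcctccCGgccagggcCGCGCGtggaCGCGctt
Ndufa4, chr6:11845380-11845424: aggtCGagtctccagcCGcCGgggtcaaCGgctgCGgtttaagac
All but 1 of the 8 held CpGs, with 8 in the Ndufa4 probe at position 11845238 and 0 in the Ndufa13 probe at position 68357958. The letters CTTTGAT or CTTTGTT, the core of the Tcf and Lef recognition sequence, were in none of the 8 on either strand. They were in only 2.31% of all measured probes and 2.47% of measured member probes. Their absence from 8 short probes therefore says little about the called sites.

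Few respiratory chain genes were called. The 3 called were Cox4nb, Ndufa13 and Ndufa4, which is 3.75% of the 80 loci, against 15.5% of all 16396 genes with a measured set. All 3 were on array 1, where 7.50% of member loci were called against 18.4% of all genes. On array 2, 0 of 40 member loci were called against 12.4% of all genes. The median peak was 0.84 over members (quartiles 0.64 and 1.16) and 0.98 over all genes (quartiles 0.64 and 1.38). On array 1 the median peak was 0.84 over members and 1.08 over all genes, and on array 2 it was 0.86 over members and 0.87 over all genes. Members had a median of 13 measured probes and all genes 16, and the part of this in the peaks was not tested. The level of a gene, the median of its measured probes, had a median of -0.07 over members and 0.01 over all genes. On these same arrays the known Wnt targets Axin2 and Lef1 and the Tcf3 gene itself, whose peaks were 2.62, 2.14 and 2.50, were all called. These genes were chosen with earlier results of these data known, so their calls are not an independent check.

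**Figure D1:**
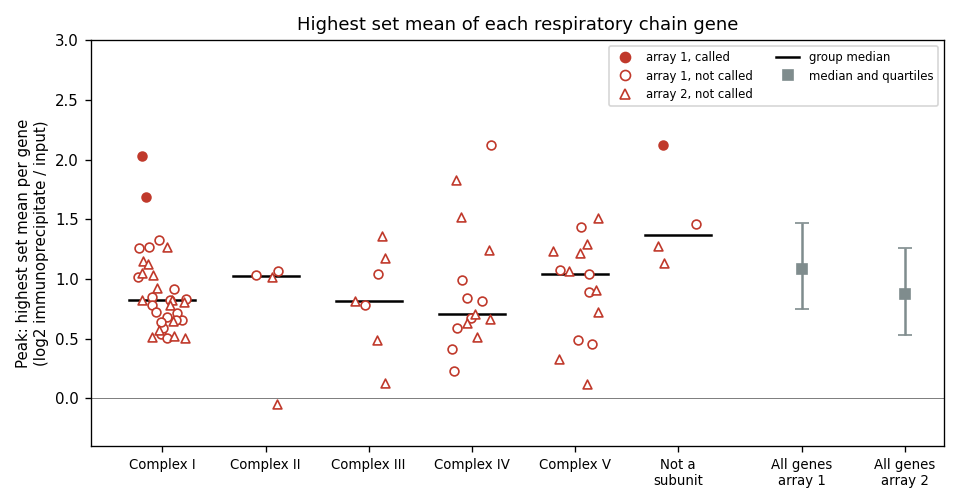
Highest set mean (log2 immunoprecipitate over input, vertical axis) of each respiratory chain locus, by complex; filled points are called, circles are array 1, triangles array 2, black lines group medians, and squares with bars the median and quartiles over all genes of each array. Most members lie between 0.5 and 1.3, around or below the medians over all genes, 1.08 on array 1 and 0.87 on array 2, and the filled points stand for Ndufa13, Ndufa4 and Cox4nb.

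The highest member signal lay between Cox4i1 and Cox4nb, a pair of genes that share 1 divergent promoter on chromosome 8. Cox4i1 encodes the ubiquitous isoform of subunit 4 of complex IV. Cox4nb is the array's name for Emc8, a subunit of the endoplasmic reticulum membrane complex, and belongs to the rule by name only. The probe at position 119303052 had an intensity of 5232 in the immunoprecipitate and 637 in input, a log2 ratio of 3.32. The probe beside it, which carries both gene names, had 530 in the immunoprecipitate and 211 in input, a log2 ratio of 1.61. The third probe of the set, named Cox4i1, had 829 in the immunoprecipitate and 373 in input, a log2 ratio of 1.44. Together they gave the peak of 2.12 ± 1.04, higher than 94.9% of the genes of array 1, for both genes. The peaks were 1.20 for Cox4i1 and 1.25 for Cox4nb with the GC trend of the array subtracted. The called probes had log2 ratios of 2.67, 0.27 and 3.32 and carry the name Cox4nb alone, so Cox4i1 was not called by the rule. The middle one of these, with an intensity of 1119 in the immunoprecipitate and 1129 in input, passed only through its neighbours.

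Ndufa13, which encodes an accessory subunit of complex I also known as GRIM-19, had a peak of 2.03 ± 0.13. Its 3 called probes had intensities of 2273, 8227 and 3611 in the immunoprecipitate and 672, 2692 and 982 in input, with log2 ratios of 2.04, 1.89 and 2.16. All 3 were thus raised alike, and the level of the gene, 1.89, was the highest of any member on measured spots and above 99.7% of the genes of array 1. Once the GC trend was subtracted, the peak was 1.42 and the level 0.62, below the levels of 3 other members, Atp5s at 0.81, Atp5h at 0.72 and Ndufa1 at 0.67, which are named after their values were seen. The gene has only 5 probes on the array, and its other 2 were lower, at 0.63 and 0.29. Those 5 probes lie within a stretch whose flanking probes are named Tssk6, a testis-specific kinase gene. The RefSeq promoter window of Ndufa13 matched no probe, so the distance of these probes from its start site was not measured.

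Ndufa4 was named as a complex I subunit and was later found to be a subunit of complex IV. Its peak of 1.68 ± 1.31 rested on 2 probes, with intensities of 2977 and 2341 in the immunoprecipitate and 705 and 498 in input. Their log2 ratios were 2.36 and 2.51, and their centres lay 350 and 492 bp before the annotated start. Their GC contents were 75.6% and 64.4%. The next probe towards the gene, 169 bp before the start, had 858 in the immunoprecipitate and 924 in input, a log2 ratio of 0.17. Farther before the start, at position 11848378, a single Ndufa4 probe had a log2 ratio of 1.92 and was not called. With the GC trend of the array subtracted the peak was 1.47 and the gene was not called.

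**Figure D2:**
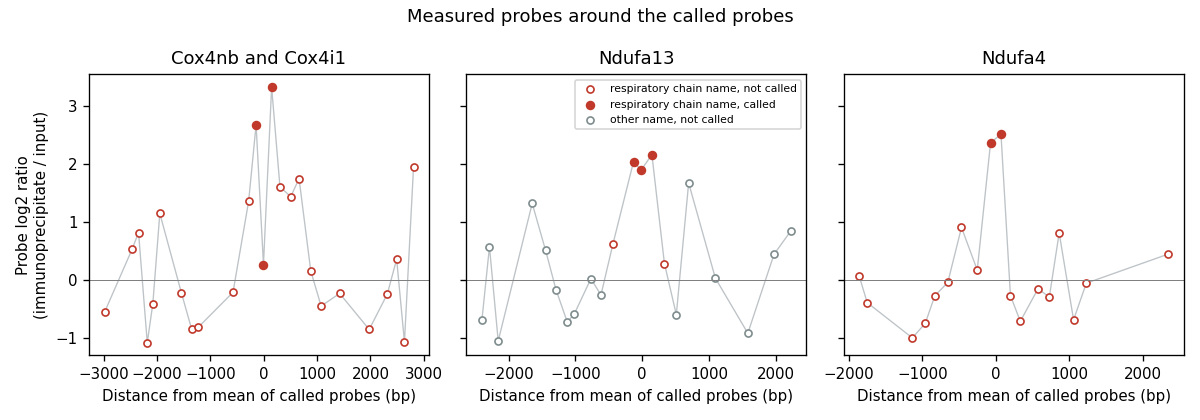
Log2 ratio of each measured probe (vertical axis) against its distance in bp from the mean position of the called probes (horizontal axis) at Cox4nb and Cox4i1, Ndufa13 and Ndufa4; filled points are called, red points carry a respiratory chain name and grey points another name. At each locus the called probes lie close together, with log2 ratios up to 3.32 at Cox4nb, 2.16 at Ndufa13 and 2.51 at Ndufa4, and most probes around them lie between -1 and 1.

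Counted by gene name, so that Ndufa4 stands with complex I, 2 of the 35 complex I loci were called, 5.71% against 15.5% of all genes. Peaks in complex I were between 0.50 and 2.03, with a median of 0.82. Below Ndufa13 and Ndufa4 stood Ndufa9, an accessory subunit that stabilises the joint between the membrane arm and the matrix arm. Its peak of 1.33 came from 1 probe 3416 bp before the start, with 3135 in the immunoprecipitate and 439 in input, whose measured neighbour had a log2 ratio of -0.46. The spread within that pair, an SD of 2.53, was larger than the peak itself, and both probes of the pair also carry the name Akap3. Ndufaf1 encodes an assembly factor of complex I, not a subunit, and reached 1.46 ± 1.64. One probe of Ndufaf1 had a log2 ratio of 2.62, from dim spots of 333 in the immunoprecipitate and 65.9 in input, and the other had 0.29.

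Complex II, which is also the succinate dehydrogenase of the citrate cycle, had 4 genes and 0 called. With 15.5% of all genes called, 0 of 4 says little about the complex. Sdhb, the iron-sulphur subunit, had a peak of 1.04 ± 0.43, and its 3 probes had log2 ratios of 0.92, 1.51 and 0.67 from 73 bp before to 339 bp after the start. Sdha, the flavoprotein, had 1.02 ± 0.34, with log2 ratios from 0.64 to 1.31 within 258 bp of its start. Both genes had positive ratios on all 3 neighbouring probes of the set, which was chosen as the highest of its gene. Sdhc and Sdhd encode the membrane anchors. The Sdhc peak of 1.07 ± 0.87 was driven by a probe of low GC content, 36.7%, with a log2 ratio of 1.99. Sdhd had the lowest peak of all members, -0.05, from 2 probes at 0.28 and -0.38. With background-level spots included it was 0.85, so its place in the order depends on which spots are kept.

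Complex III had 7 loci and a median peak of 0.82. Of the 7, 0 were called, against 15.5% of all genes, which says little with so few loci. Uqcrq, a small subunit, led with 1.36 ± 1.77. One Uqcrq probe had 507 in the immunoprecipitate and 96.0 in input, a log2 ratio of 2.61, and the other had 0.10. The Uqcrq peak was 0.48 with the GC trend subtracted and 0.87 with background-level spots, and under both settings Uqcrc2, a core subunit, was the highest of the complex, at 1.05 and 1.58. Uqcrb, a subunit at the ubiquinone-binding region, had the third lowest peak of all members. Its 3 probes had log2 ratios of -0.23, 0.01 and 0.59, a peak of 0.12 that changed to -0.10 with the GC trend subtracted.

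Complex IV had 15 loci by gene name, without Ndufa4, of which 0 were called, against 15.5% of all genes. Its median peak was 0.71. This was the lowest of the 5 complexes on measured spots, but not with background-level spots, where complex V had 0.87 and complex IV 0.93, nor with the GC trend subtracted, where complex III had 0.48 and complex IV 0.62. Several of its subunits exist as a ubiquitous isoform and a tissue-restricted one. The lung isoform Cox4i2 had a peak of 0.41 and the ubiquitous Cox4i1 2.12. The heart and muscle isoform Cox6a2 had 0.23 and the ubiquitous Cox6a1 0.67, while the testis isoform Cox6b2 had 0.99 and the ubiquitous Cox6b1 0.81. For subunit 8, the testis isoform Cox8c had 1.83, the heart and muscle isoform Cox8b 0.59 and the ubiquitous Cox8a 0.51. No order of isoforms was shared by the subunits, and the medians were 0.59 over 5 tissue-restricted and 0.81 over 5 ubiquitous isoforms. With background-level spots that order turned round, with 0.93 over the tissue-restricted and 0.77 over the ubiquitous isoforms. The Cox8c peak rested on 2 probes, with 723 and 2635 in the immunoprecipitate and 201 and 1013 in input, and log2 ratios of 2.06 and 1.59. The Cox6b1 peak, ± 1.78, lay 7474 bp before its start on 1 probe with 4561 in the immunoprecipitate and 1320 in input, beside an Etv2 probe at -0.44. Cox7a2, the ubiquitous isoform of subunit 7a, had a peak of 1.51 ± 0.33 at its start, from probes with 615 and 950 in the immunoprecipitate and 212 and 453 in input.

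Complex V, the ATP synthase, had 15 loci and 0 called, against 15.5% of all genes. Its median peak was 1.04, close to the 0.98 of all genes. Atp5j, coupling factor 6 of the peripheral stalk, led with 1.51 ± 0.51. Its probes had intensities of 472, 2842 and 5616 in the immunoprecipitate and 283, 859 and 2102 in input, and log2 ratios of 0.95, 1.94 and 1.63 from 225 bp after to 30 bp before the start. All 3 were raised, at GC contents of up to 68.9%, and the peak was 0.75 with the GC trend subtracted. Atp5g3 and Atp5g1 both encode the c subunit of the membrane rotor. The Atp5g3 peak of 1.44 ± 1.91 rested on 1 probe with a log2 ratio of 2.79, beside another at 0.09. The probe at 2.79 lay 2846 bp before the start. The highest probe of Atp5g3, at 3.06, lay 19 bp before the start, between probes at 0.68 and 0.35. The Atp5g1 peak was 0.33 ± 0.93. Of the catalytic head, the alpha subunit gene Atp5a1 had 1.29 ± 0.15 and the beta subunit gene Atp5b 0.12 ± 0.64. With background-level spots these peaks were 1.05 and 0.81, so their distance depends on which spots are kept. With the GC trend subtracted they were 0.89 and 0.13.

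Cox7a2 and Atp5b are shown as a member with a high peak, 1.51, and a member with a low peak, 0.12. With background-level spots their peaks were 1.52 and 0.81. Within 250 bp of the start their mean log2 ratios were 1.13 and -0.09, and other members were lower there than Atp5b. Their RefSeq promoters in build GRCm38.p6, 300 bases from 250 before the start, are printed 5′ to 3′ on the gene's strand with the measured array probes that lie wholly within them in capitals.
Cox7a2, chr9:79759804-79760103, minus strand: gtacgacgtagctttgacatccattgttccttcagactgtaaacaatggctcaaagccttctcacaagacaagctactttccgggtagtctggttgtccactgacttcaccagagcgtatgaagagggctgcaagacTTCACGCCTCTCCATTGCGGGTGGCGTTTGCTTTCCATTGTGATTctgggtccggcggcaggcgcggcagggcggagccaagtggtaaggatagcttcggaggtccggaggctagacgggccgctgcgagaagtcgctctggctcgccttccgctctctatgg
Atp5b, chr10:128083057-128083356, plus strand: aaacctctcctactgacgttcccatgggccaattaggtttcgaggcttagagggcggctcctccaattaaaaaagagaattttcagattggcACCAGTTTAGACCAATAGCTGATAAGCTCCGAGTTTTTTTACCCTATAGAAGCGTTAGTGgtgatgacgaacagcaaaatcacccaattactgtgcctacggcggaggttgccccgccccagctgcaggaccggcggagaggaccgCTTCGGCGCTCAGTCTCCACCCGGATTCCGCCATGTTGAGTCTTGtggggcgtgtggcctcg
The Cox7a2 probe, centred 91 bp before the start, had a log2 ratio of 1.28 at a GC content of 51.1%. In Atp5b the upstream probe had -0.49, with 308 in the immunoprecipitate and 502 in input. The probe over the Atp5b start had 0.78, with 2178 in the immunoprecipitate and 1471 in input. These windows held 20 CpGs in Cox7a2 and 18 in Atp5b.

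Signal at the members was centred on the start site and gave way to a trough inside the gene. A start could be placed by an exact match of a probe to a RefSeq promoter for 54 member genes and 10919 genes in all. Within 250 bp of the start the mean log2 ratio per gene had a median of 0.60 over 53 members with a measured probe there, and 0.51 over 10157 genes. It was above 0 in 46 of the 53 members, which is 86.8%, and in 80.7% of all genes. From 500 to 1000 bp after the start the median was -0.45 over 41 members and -0.02 over 8587 genes. There 33 of 41 members, 80.5%, were below 0, against 51.4% of all genes. The trough was on both arrays, with medians of -0.30 over 21 members of array 1 and -0.65 over 20 members of array 2, against -0.02 and -0.03 over all genes. Of the 41 members with probes in both windows, 37 stood higher at the start than downstream, 90.2% against 74.2% of all genes, by a median difference of 1.07 against 0.55. The highest means within 250 bp were 1.87 at Atp5g3, 1.51 at Atp5j and 1.24 at Cox7a2l, a supercomplex assembly factor named after its value was seen, and the lowest was -0.50 at Atp5g1. With the GC trend subtracted the start windows had medians of 0.28 over members and 0.22 over all genes, and the downstream windows -0.32 over members and -0.02 over all genes. The peak set lay within 500 bp of the start in 29 of 54 members, 53.7%, and in 47.1% of all genes.

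**Figure D3:**
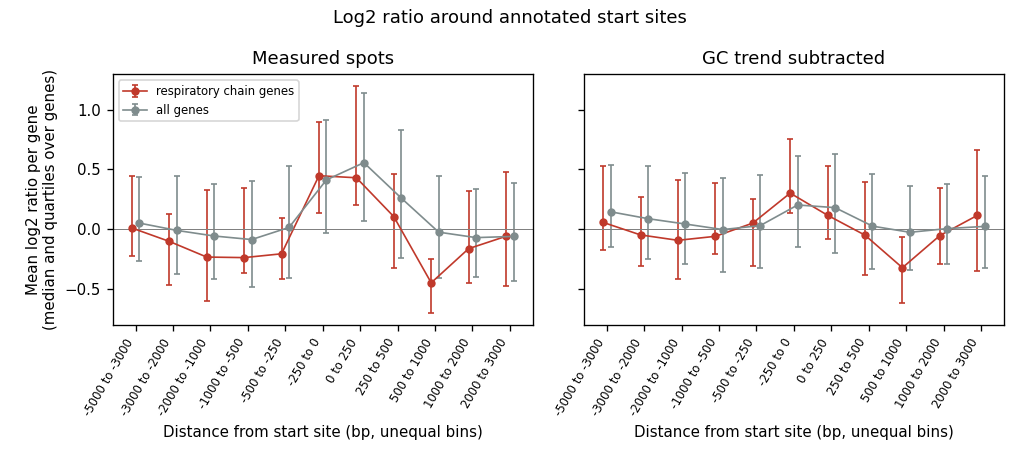
Mean log2 ratio per gene in bins of distance from the start site (horizontal axis, bp, unequal bins), as the median with quartile bars over respiratory chain genes (red) and over all genes (grey), for measured spots at left and with the GC trend subtracted at right. Members reach their highest medians within 250 bp of the start and their lowest, -0.45 at left and -0.32 at right, from 500 to 1000 bp after it, where all genes have -0.02.

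The base composition of a probe moved with its log2 ratio, on the members as on the arrays as a whole. Member probes under 40% GC had a median log2 ratio of -0.34, those of 40% to 50% -0.26, those of 50% to 60% 0.37 and those of 60% or more 0.86. Over all probes the medians were -0.20, -0.15, 0.28 and 0.89. Below 50% GC, 0 of 943 measured member probes were called, against 0.62% of 206551 probes, and from 60% GC up 6 of 93 were called, 6.45% against 10.1%. The part of base composition in the calls was not tested. With the GC trend subtracted 4 of 80 loci were called, 5.00%, against 14.8% of all genes. These were 4 of 40 on array 1, against 21.2% of all genes, and 0 of 40 on array 2, against 8.08%. Cox4nb and Ndufa13 were called either way. Ndufa5, an accessory subunit of complex I, and Atp5e, the epsilon subunit of the ATP synthase head, were not called before it, with peaks of 1.20 and 1.12 on that scale. These last genes are named after their values were seen.

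**Figure D4:**
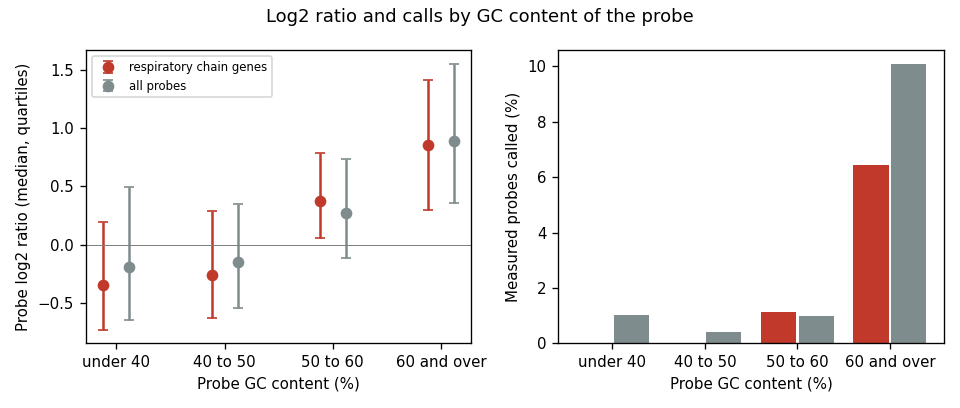
Left, log2 ratio of measured probes (median with quartile bars) and right, percent of measured probes called, by GC content of the probe in percent, for respiratory chain genes (red) and all probes (grey). Both panels are highest at 60% GC and over, where member probes have a median of 0.86 and 6.45% called and all probes 0.89 and 10.1%.

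The promoters of the members differed in letters from promoters at large. For 64 members a RefSeq window was found, with a median GC content of 57.8% against 52.7% over the 27025 windows of the RefSeq table, and a median ratio of observed to expected CpG of 0.82 against 0.39. Motifs were counted as exact letters on both strands of the 300 bases. The NRF1 letters, GCGCA followed at once by its reverse complement TGCGC, were in 4 of 64 member windows, 6.25% against 0.98% of all windows. The ETS letters CCGGAAG were in 16, 25.0% against 9.12%, and the YY1 letters AAGATGGC in 9, 14.1% against 2.88%. The Tcf and Lef letters CTTTGAT or CTTTGTT were in 4, 6.25% against 9.28%, and TATAAA was in 6, 9.38% against 14.2%. Member windows thus held the letters of all 3 factors named above more often than promoters at large, and the share with Tcf letters rests on 4 windows. The NRF1 and ETS letters themselves hold CpGs, and the part of the members' higher CpG content in these shares was not tested. Among array probes, 30 of 1215 measured member probes held CTTTGAT or CTTTGTT, with a median log2 ratio of -0.18 and 0 called. The 6428 such probes on both arrays had a median of -0.12 and 86 called. Without the letters, 8 of 1185 member probes and 4117 of 272344 probes on both arrays were called. Of all measured probes, 1.59% on array 1 and 1.39% on array 2 were called, so 0 of 30 sets the members apart in no way.

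Atp5k and Cox6a1 held both the NRF1 and the ETS letters, which are in capitals in their promoters (GRCm38.p6, 5′ to 3′ on the gene's strand). Atp5k encodes the e subunit of the ATP synthase.
Atp5k, chr5:108434350-108434649, minus strand: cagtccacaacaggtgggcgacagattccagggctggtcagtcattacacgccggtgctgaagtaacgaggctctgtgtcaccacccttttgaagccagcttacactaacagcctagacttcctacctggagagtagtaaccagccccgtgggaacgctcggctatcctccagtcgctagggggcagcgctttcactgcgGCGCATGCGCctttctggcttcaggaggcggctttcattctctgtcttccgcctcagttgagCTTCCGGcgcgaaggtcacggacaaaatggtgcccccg
Cox6a1, chr5:115348909-115349208, minus strand: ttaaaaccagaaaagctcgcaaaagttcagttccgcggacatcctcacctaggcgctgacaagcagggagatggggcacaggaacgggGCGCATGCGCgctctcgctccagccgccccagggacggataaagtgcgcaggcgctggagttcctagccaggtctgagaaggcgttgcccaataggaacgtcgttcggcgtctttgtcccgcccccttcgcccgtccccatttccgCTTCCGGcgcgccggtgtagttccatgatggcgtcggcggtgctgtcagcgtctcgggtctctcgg
The NRF1 letters began 50 bases before the start in Atp5k and 162 before it in Cox6a1, and the ETS letters, on the other strand, began 12 bases after and 16 bases before it. The 2 Atp5k probes within the window had log2 ratios of 0.47 and 0.87, the second over the start itself, and the Cox6a1 probe had 0.35. Over members with any of the NRF1, ETS or YY1 letters, the median of the means within 250 bp was 0.26, over 23 genes from -0.22 to 1.22. Over the 30 members with none of them it was 0.68, from -0.50 to 1.87. The 2 ranges overlap over most of their length. With the GC trend subtracted the medians were 0.14 with the letters and 0.38 without.

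Promoters shared with a neighbouring gene were also counted. On shared probes, 27 member loci were paired by name with another gene, and their median peak was 0.84 with 1 called, against 0.83 with 2 called over the 53 loci without a partner. Over all genes, paired or not, 15.5% were called.

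Other lists of mitochondrial genes had between 0 and 3 genes called. Over all genes 15.5% were called on measured spots, 18.4% on array 1 and 12.4% on array 2, and 14.8% with the GC trend subtracted. In lists of 5 to 16 genes such counts carry little weight. Of 14 assembly factors 2 were called, 14.3%, close to the share over all genes. Their peaks were 2.64 for Tmem126b, which acts in complex I assembly, and 2.15 for Atpaf2, which acts in assembly of the ATP synthase head. After GC adjustment the Tmem126b peak was 2.90 and called, and the Atpaf2 peak was 0.95 and not called. Of 5 electron carriers 0 were called, led by Etfdh, which passes electrons from fatty acid oxidation to ubiquinone, at 1.75 and cytochrome c, Cycs, at 0.93. Etfdh was called, at 1.97, with the GC trend subtracted. Of 16 genes of the citrate cycle and pyruvate dehydrogenase 1 was called, 6.25%. It was Sucla2, a succinyl-CoA ligase subunit with a peak of 1.33 that is named after its value was seen. The Sucla2 call was lost both with background-level spots, at 1.15, and with the GC trend subtracted, at 0.50. The highest of that list, Idh3a at 1.82 and Pdha1 at 1.75, were not called on measured spots, and Pdha1 was called with the GC trend subtracted, also at 1.75. Of 72 mitochondrial ribosomal protein genes 3 were called, 4.17%, with Mrpl9 at 2.06 and Mrpl45 at 2.05 the highest. After GC adjustment 5 of the 72 were called, and Mrpl9, at 1.48, and Mrpl45, at 1.94, were not among them. For comparison, the cytosolic ribosomal protein genes, which are also broadly expressed, had 4 of 78 called, 5.13%, and a median peak of 0.79.

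Of 13 regulators of mitochondrial genes and of mitochondrial DNA upkeep, 3 were called, 23.1% against 15.5% of all genes. With so few genes that difference carries little weight. The 3 were Nrf1, at 1.93, and Yy1, at 1.92, and Gabpb1, at 1.74, a subunit of GABP that is named after its value was seen. Nrf1 and Yy1 encode factors whose letters were counted in the members' promoters, whereas Gabpb1 encodes the partner of the DNA-binding subunit of GABP. The gene of that DNA-binding subunit, Gabpa, was in the same list and was not called, with a peak of 0.35. With the GC trend subtracted, 0 of the 13 were called, against 14.8% of all genes, and the 3 peaks were 1.25, 1.07 and 1.21.

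**Figure D5:**
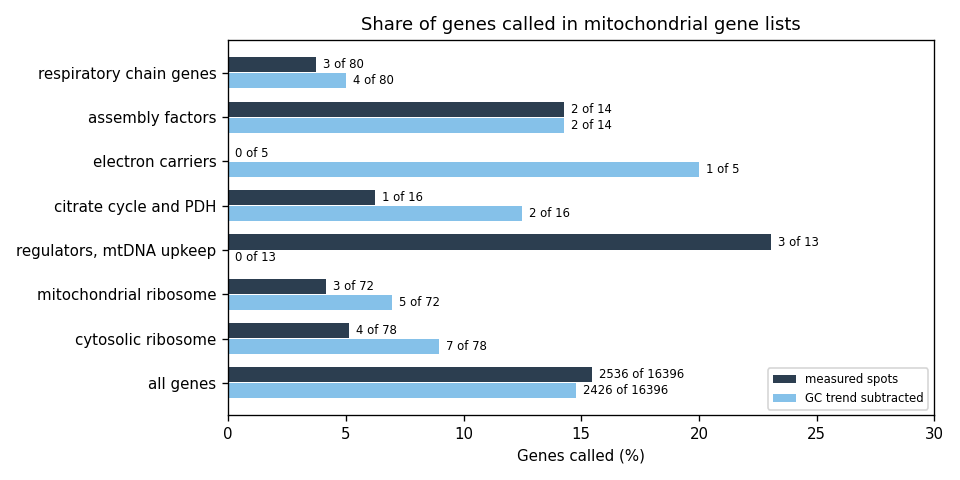
Percent of genes called (horizontal axis) in the respiratory chain genes, in other mitochondrial lists, in cytosolic ribosomal protein genes and in all genes, with counts at the bar ends; dark bars are measured spots and light bars have the GC trend subtracted. The respiratory chain genes, at 3 and 4 of 80, lie below all genes, at 15.5% and 14.8%, and the regulators have 3 of 13 called on measured spots and 0 of 13 with the trend subtracted.

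Spots at background level moved the count of called members more than any other choice tried. When such spots were kept at the scanner's surrogate values, 9 of 80 loci were called, 11.25%, against 15.4% of all genes. The 6 further loci were Sdhc, Cox7a2, Ndufaf1, and Ndufa5, Ndufb3 and Ndufb6 of complex I, the last 3 named after their values were seen. Each of the 6 had at least 1 surrogate value in its peak set, so that its ratio is a bound and not a measurement. On that basis array 1 had 8 of 40 member loci called against 25.1% of all genes, and array 2 had 1 of 40 against 5.52%.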

How the data were processed

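Tcf3 chromatin immunoprecipitates (Cy5) and input DNA (Cy3) from E14 mouse embryonic stem cells were hybridised to 2 Agilent promoter arrays, 1 hybridisation each. Per the file headers, the authors extracted the deposited intensities with Agilent Feature Extraction 9.1.1.1, which subtracts background, equalises the dyes and replaces a spot at background level by a surrogate value. The log10 ratio column that the authors deposited, Cy5 over Cy3, comes from the same processed intensities and served as an alternative. PCR amplification before labelling can shift signal with base composition. The deposited value table holds the error of the log ratio and was not used. The number of arrays limits the precision.

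From there, log2 ratios of spots measured in both channels (no surrogate, not marked non-uniform) were centred on the array median. Sets joined a probe to the closest measured probe on either side, up to 1000 bp away. The scale came from values below the median, 0.71 on array 1 and 0.68 on array 2. A probe was called at a set probability under 0.001 with either its own under 0.001 and a neighbour under 0.1, or 2 probes under 0.005. The rule was tested on simulated data. GC trends were medians per bin of 2%. Genes named in the text are called members, the 12 highest and 6 lowest peaks, complex II, the complex IV isoforms and the 2 highest of each other list. Members and lists were chosen with earlier results of these data known. RefSeq promoters (GRCm38.p6) gave start sites and sequences. Python 3.11.15, pandas 2.3.3, numpy 2.4.6 and limma 3.58.1 (normexp) were used.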

Additional observations from a re-analysis of the deposited data

How the results depend on the processing

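No paired analysis was possible because there is 1 hybridisation of each array and no probe is on both. The count of 3 called members was 9 with background-level spots kept, 5 after GC adjustment of all spots and 6 with normexp background correction. It was 3 or 4 under the other 8 alternatives, where between 11.5% and 17.4% of all genes were called. Over all genes, 3611 of 16396 were called with normexp, against 2536 of 16396 on measured spots. The rise with normexp was thus not particular to the members. With background-level spots kept, 2610 of 16971 genes were called, and after GC adjustment of all spots 2206 of 16971. Cox4nb and Ndufa13 were called under each of the 7 other ways of choosing or scaling the spots. The median peak, 0.84, was 0.95 with background-level spots and 0.73 with normexp, and the median level, -0.07, was -0.19 with background-level spots. The GC-adjusted median level was -0.04 on measured spots and -0.11 on all spots, a setting chosen after seeing the data. Of 182 recomputed peaks of 26 named genes, 164 moved by less than the spread of their set, 14 moved by more and 4 changed sign. The spread of a set is often wide, so that Uqcrq, at 1.36 and at 0.21 after GC adjustment of all spots, is among the 164. So are all 26 peaks with the log10 ratio column, which holds the same processed intensities and could not differ. The same holds for all 26 with marked spots left out, and with only spots well above background. The 4 that changed sign were Uqcrb at -0.10 after GC adjustment of the measured spots, and Sdhd at 0.85 with background-level spots, 0.16 after GC adjustment of the measured spots and 0.94 after GC adjustment of all spots. The cause was not tested.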
